A study of Mus musculus with 7 samples.

Results

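R3hdml, M1ap, Cda and Fxyd2 are 4 genes whose counts in mouse articular chondrocytes were more than 100 times as high with TGFβ1 as with vehicle and that are little known in cartilage. They were chosen on those grounds, by gene name, from the 52459 gene names of the deposited count file, and all 4 were among the 13367 names with enough counts to be tested. Bulk RNA sequencing was done on primary articular chondrocytes taken from mouse femoral heads, grown in DMEM with 10% serum and treated for 24 h. Replicates 1 and 3 received TGFβ1 at 5 ng/ml (n = 2), replicates 1, 2 and 3 received BMP2 at 100 ng/ml (n = 3), and replicates 1 and 2 received vehicle (n = 2). The labels give no genotype, strain, sex or age of the mice and do not say whether replicates were separate animals or cultures, so the spread between them, and any p-value built on it, may be technical.

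TGFβ1 and BMP2 are ligands of one family that bind heteromeric serine/threonine kinase receptors. TGFβ1 signals mainly through SMAD2 and SMAD3 and BMP2 through SMAD1 and SMAD5. In articular cartilage TGFβ signalling is known for its part in keeping the surface cells and their lubricating layer, and BMP signalling for its part in chondrocyte differentiation. The 4 genes have unrelated products. R3hdml encodes a predicted secreted protein of the CAP superfamily, the cysteine-rich proteins that include the peptidase inhibitors PI15 and PI16. M1ap encodes the meiosis 1 associated protein, which mouse spermatocytes need to complete meiosis. Cda encodes cytidine deaminase, the pyrimidine salvage enzyme that turns cytidine into uridine. Fxyd2 encodes the gamma subunit of the sodium-potassium pump, a small membrane protein best known from the kidney tubule.

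Positions are those of GENCODE M21 on mm10 (GRCm38). R3hdml lies on chromosome 2 at chr2:163492318-163502612 on the plus strand and has 1 annotated transcript, of 1094 bases in 5 exons. M1ap spans chr6:82946902-83030309 on the plus strand, with 3 transcripts and a principal one of 1945 bases in 10 exons. Cda spans chr4:138338424-138367992 on the minus strand, with 2 transcripts and a principal one of 846 bases in 4 exons. Fxyd2 spans chr9:45399669-45410278 on the plus strand, with 13 transcripts and a principal one of 632 bases in 6 exons. Their coding sequences in these principal transcripts were 759 bases for R3hdml, 1587 for M1ap, 438 for Cda and 192 for Fxyd2. No exon of the 4 overlapped an exon of another annotated gene on either strand (0% of exon bases), so the counting strand, for which the sources used here give no setting, does not bear on them through an overlap.

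RefSeq promoter sequence (GRCm38.p6) was at hand for 3 of the 4 genes, R3hdml, M1ap and Cda. It is shown because the genes were chosen for a rise with TGFβ1, a ligand whose SMAD proteins bind DNA. Binding of SMAD proteins to these promoters was not tested. The 250 bases before each RefSeq start were searched on both strands for 5 motifs: CAGAC, the SMAD-binding element; GGCGC, a GC-rich SMAD element; TGANTCA, the AP-1 site; GGAATG, the TEAD site; and TATAAA, the TATA box. Each sequence runs 5′ to 3′ on the strand of its gene, capitals mark the motif matches, and bases inside the annotated gene body are left out. The stretches are chr2:163492068-163492317 on the plus strand, chr6:82946672-82946901 on the plus strand and chr4:138367993-138368205 on the minus strand.
R3hdml: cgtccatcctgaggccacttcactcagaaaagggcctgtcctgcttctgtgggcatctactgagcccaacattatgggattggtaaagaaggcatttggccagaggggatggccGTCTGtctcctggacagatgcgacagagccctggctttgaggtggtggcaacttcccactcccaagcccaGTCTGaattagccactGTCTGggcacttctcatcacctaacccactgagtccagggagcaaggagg
M1ap: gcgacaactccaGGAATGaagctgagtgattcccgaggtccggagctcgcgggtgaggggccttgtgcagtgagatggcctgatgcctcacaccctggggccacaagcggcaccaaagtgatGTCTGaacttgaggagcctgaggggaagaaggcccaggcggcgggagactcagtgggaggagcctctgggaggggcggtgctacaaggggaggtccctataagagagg
Cda: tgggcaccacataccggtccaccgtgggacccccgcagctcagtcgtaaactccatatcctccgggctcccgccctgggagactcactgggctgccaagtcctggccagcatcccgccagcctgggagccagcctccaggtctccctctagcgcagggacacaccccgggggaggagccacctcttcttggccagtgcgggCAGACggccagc

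The R3hdml stretch held 3 matches to the SMAD-binding element, all read as its reverse complement GTCTG, with 131, 61 and 45 bases between the match and the RefSeq start. M1ap had 1 such match, also as GTCTG, 123 bases before the start, and 1 TEAD match 232 bases before it. Cda had 1 match as CAGAC, 44 bases before the start. None of these 3 windows held an exact match to the letters searched for the GC-rich SMAD element, the AP-1 site or the TATA box. Variants of these letters were not searched. Of 32851 RefSeq promoter windows of the same 250 bases, 42.2% held at least 1 CAGAC on either strand, 32.0% GGCGC, 6.75% TGANTCA, 12.6% GGAATG and 12.4% TATAAA, so the short SMAD element is common and its presence here is a description only. The GC content of the 250 bases was 56.0% for R3hdml, 62.4% for M1ap and 68.0% for Cda, against a median of 52.4% over all windows.

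The libraries held 18047765 and 16271793 counts with TGFβ1, between 6747997 and 10686885 with BMP2, and 6885056 and 7387051 with vehicle, so the TGFβ1 libraries were the deepest. Levels are counts-per-million (CPM) on library sizes scaled by TMM, which corrects totals for genes that dominate a library. The chondrocyte part of the label was borne out by 9 chondrocyte markers, Col2a1 and Acan among them. Their summed level was 34489 to 40414 CPM with TGFβ1, 47369 to 53457 CPM with BMP2 and 54888 to 54914 CPM with vehicle. This sum does not tell articular chondrocytes from other chondrocytes. The 3 superficial-zone markers Prg4, Cilp and Clu summed to 6420 to 6674 CPM with TGFβ1, 207 to 238 CPM with BMP2 and 414 to 468 CPM with vehicle. In bulk samples, more cells of a type and more RNA per cell cannot be told apart.

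R3hdml, the CAP-superfamily gene, had 33487 and 18996 counts in the TGFβ1 libraries (replicates 1 and 3), 71, 34 and 71 counts in the BMP2 libraries (replicates 1, 2 and 3), and 51 and 34 counts in the vehicle libraries (replicates 1 and 2). On the CPM scale these were 2463 and 1450 with TGFβ1, 6.09, 4.51 and 6.68 with BMP2, and 6.82 and 4.07 with vehicle. Both TGFβ1 libraries stood far above the other 5, which overlapped. In the TGFβ1 libraries R3hdml ranked 61st and 121st of all gene names by CPM. It averaged 1957 ± 716 CPM with TGFβ1, 5.76 ± 1.12 CPM with BMP2 and 5.44 ± 1.95 CPM with vehicle (SD, n = 2, 3 and 2). The TGFβ1 replicates themselves differed, replicate 1 being 1.70 times replicate 3, and 3.50% of all tested genes differed more between these libraries. R3hdml and Cda fall in the class of principal transcripts above 750 and up to 1200 bases. Over tested genes of this class the median log2 ratio of replicate 1 to replicate 3 was 0.33. It was 0.03 up to 750 bases, 0.06 above 1200 and up to 2500 bases and −0.06 above 2500 bases. For Cda itself the log2 ratio was 0.04.

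M1ap, the spermatocyte gene, had 12149 and 12060 counts with TGFβ1, 100, 47 and 75 with BMP2, and 41 and 53 with vehicle. Its level was 894 and 921 CPM with TGFβ1, 8.58, 6.23 and 7.05 CPM with BMP2, and 5.48 and 6.34 CPM with vehicle. TGFβ1 replicate 1 was 0.971 times replicate 3, and the lowest BMP2 library lay below the higher vehicle library. The means were 907 ± 19.1 CPM with TGFβ1, 7.29 ± 1.19 CPM with BMP2 and 5.91 ± 0.606 CPM with vehicle (SD, n = 2, 3 and 2).

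Cda, the cytidine deaminase gene, had 6585 and 6189 counts with TGFβ1, 36, 32 and 53 with BMP2, and 13 and 19 with vehicle. In CPM it stood at 484 and 473 with TGFβ1, 3.09, 4.24 and 4.98 with BMP2, and 1.74 and 2.27 with vehicle. Here the 3 groups did not overlap, and every BMP2 library was above both vehicle libraries. The means were 478 ± 8.40 CPM with TGFβ1, 4.11 ± 0.956 CPM with BMP2 and 2.01 ± 0.378 CPM with vehicle (SD, n = 2, 3 and 2).

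Fxyd2, the pump gamma subunit, had 4784 and 4735 counts with TGFβ1, 66, 22 and 42 with BMP2, and 8 and 11 with vehicle. Its CPM were 352 and 362 with TGFβ1, 5.66, 2.92 and 3.95 with BMP2, and 1.07 and 1.32 with vehicle. The 3 groups again did not overlap. It averaged 357 ± 6.78 CPM with TGFβ1, 4.18 ± 1.39 CPM with BMP2 and 1.19 ± 0.174 CPM with vehicle (SD, n = 2, 3 and 2). Outside the TGFβ1 group all 4 genes therefore rested on few counts, at most 100 a library.

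**Figure D1:**
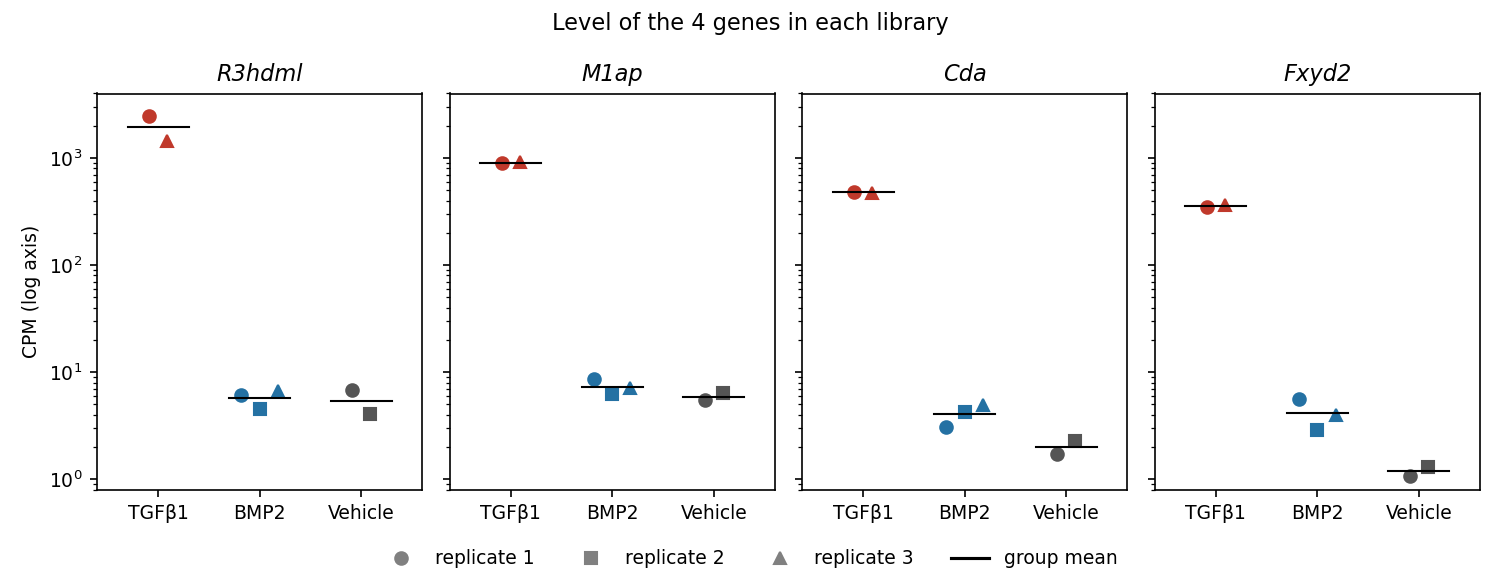
CPM of R3hdml, M1ap, Cda and Fxyd2 (log axis) in each of the 7 libraries, grouped as TGFβ1, BMP2 and vehicle; each symbol is 1 library, its shape the replicate number, and the bar is the group mean. The TGFβ1 libraries lie between 352 and 2463 CPM, and no library of the other groups is above 8.58 CPM.

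The order of the genes within the TGFβ1 group depended on the length used. Per kb of the deposited length column, the TGFβ1 mean was 1789 ± 655 CPM per kb for R3hdml (1094 bases), 462 ± 8.12 for Cda (1035 bases), 410 ± 8.65 for M1ap (2212 bases) and 89.1 ± 1.69 for Fxyd2 (4005 bases). Per kb of the principal transcript it was 1789 for R3hdml, 566 for Cda, 564 for Fxyd2 and 466 for M1ap. R3hdml was first on both scales. Fxyd2 was last on one and level with Cda on the other, because the deposited length sums the exons of all 13 of its transcripts, which are 258 to 1694 bases long one by one.

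The difference between TGFβ1 and vehicle is what chose these genes, so it is given as a description with no test. The fitted log2 fold change was 8.50 (SE 0.37) for R3hdml, 8.20 (SE 0.28) for Fxyd2, 7.88 (SE 0.24) for Cda and 7.26 (SE 0.20) for M1ap. As ratios of mean CPM these were 360 for R3hdml, 299 for Fxyd2, 239 for Cda and 153 for M1ap. The lowest TGFβ1 library was still 213 times the highest vehicle library for R3hdml, 267 times for Fxyd2, 208 times for Cda and 141 times for M1ap. CPM ranges were separate with TGFβ1 higher for 40.0% of all tested genes, and 30.4% of tested genes rose past an adjusted p of 0.05.

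A ratio above 100 was reached by 16 of the 13367 tested genes, or 0.12%, leaving aside 45 tested genes with 0 vehicle counts. Just above 100 stood Ankrd1 at 105, a nuclear ankyrin-repeat protein known as a YAP target, and Rab42 at 119, a small GTPase. Just below stood Has1, a hyaluronan synthase, and Vat1l, both at 97.5. In the order of ratios R3hdml was the second, Fxyd2 the fourth, Cda the sixth and M1ap the tenth. Crabp2, a retinoic acid carrier named here after its value was seen, was the first at 827, with 1 count in the vehicle libraries together. The 4 genes were the only ones of the 16 with a vehicle mean of at least 1 CPM, and they were the 4 highest of the 16 with TGFβ1. Without vehicle replicate 1, 10 genes passed 100, and the ratios were 481 for R3hdml, 271 for Fxyd2, 211 for Cda and 143 for M1ap.

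**Figure D2:**
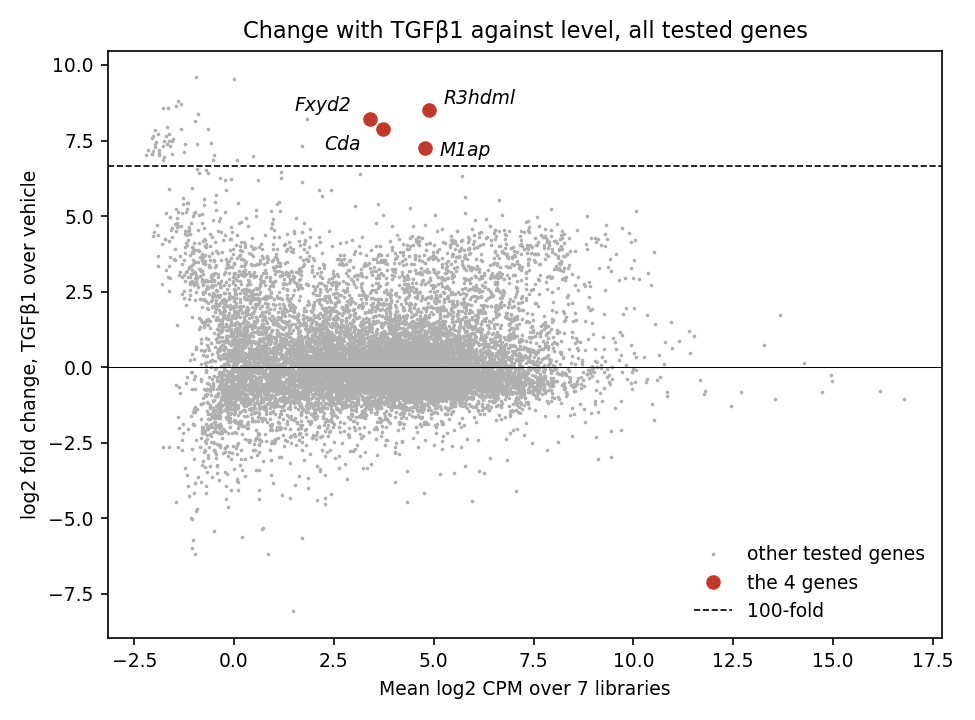
Fitted log2 fold change of TGFβ1 over vehicle against the mean log2 CPM over the 7 libraries, 1 grey point for each tested gene; red points are the 4 genes and the dashed line is 100-fold. The 4 genes, at log2 fold changes of 7.26 to 8.50, stand apart on the right of the points above the line, which are otherwise genes of low mean level, some of them with 0 vehicle counts.

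Transcript length moved with the change between TGFβ1 and vehicle over all tested genes. The median log2 fold change was 2.87 over the 647 tested genes with a principal transcript of up to 750 bases (the class of Fxyd2), 1.84 over the 963 above 750 and up to 1200 bases (R3hdml and Cda), 0.21 over the 3723 above 1200 and up to 2500 bases (M1ap) and −0.25 over the 7897 longer ones. Of the 16 genes above 100-fold, 7 had a principal transcript of at most 1000 bases. With an offset per library for principal transcript length and GC content, the log2 fold change was 6.79 for R3hdml, 7.07 for M1ap, 5.31 for Cda and 5.09 for Fxyd2. With an offset for the deposited length it was 6.57 for R3hdml, 6.96 for M1ap, 5.88 for Cda and 8.18 for Fxyd2, whose deposited length is the largest of the 4. The part of transcript length in these values was not tested.

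The BMP2 libraries played no part in the choice, and BMP2 against vehicle was tested, with the reservation that the same vehicle libraries entered the choice and genes low in them were favoured. Fxyd2 and Cda rose with BMP2, and R3hdml and M1ap did not pass the test. Of all tested genes 5.33% rose and 6.15% fell in this comparison. Fxyd2 rose 3.55-fold (95% interval 2.15 to 5.86), a log2 fold change of 1.83 (SE 0.33) with an adjusted p of 0.00517 by edgeR's quasi-likelihood test with Benjamini-Hochberg adjustment. Cda rose 2.02-fold (95% interval 1.36 to 3.00), a log2 fold change of 1.01 (SE 0.26) with an adjusted p of 0.0295. For both genes all 3 BMP2 libraries were above both vehicle libraries, as they were for 21.9% of all tested genes. M1ap had a log2 fold change of 0.31 (95% interval −0.08 to 0.70, adjusted p = 0.312) and R3hdml one of 0.11 (95% interval −0.59 to 0.80, adjusted p = 0.877), and the groups overlapped for both. These intervals leave room for a 1.63-fold rise of M1ap and a 1.74-fold rise of R3hdml.

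The calls for Cda and Fxyd2 rested on few libraries. The Cda call was lost, at adjusted p between 0.0529 and 0.227, without BMP2 replicate 2 (log2 fold change 0.99), BMP2 replicate 3 (0.83), vehicle replicate 1 (0.84) or vehicle replicate 2 (1.23), with only the libraries of both groups in the fit (1.01) and with either length offset (1.04 and 1.06). The Fxyd2 call was lost without vehicle replicate 1 (1.69, adjusted p = 0.0574) or vehicle replicate 2 (1.99, adjusted p = 0.0501), where the lone vehicle library was assumed to vary like the other groups.

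**Figure D3:**
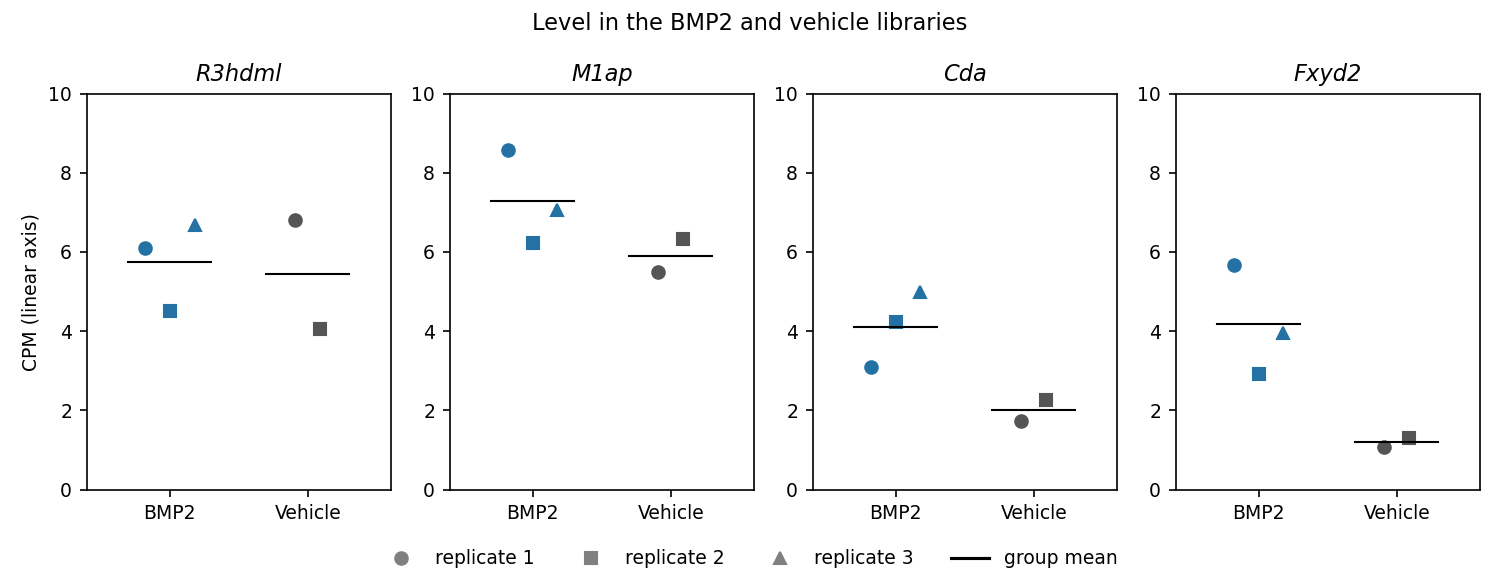
CPM of the 4 genes (linear axis) in the 3 BMP2 and the 2 vehicle libraries, with symbols for replicate numbers and a bar for the group mean. The groups are separate for Cda (3.09 to 4.98 against 1.74 and 2.27 CPM) and Fxyd2 (2.92 to 5.66 against 1.07 and 1.32 CPM) and overlap for R3hdml and M1ap.

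Set against TGFβ1, BMP2 gave log2 fold changes of −8.39 for R3hdml, −6.95 for M1ap, −6.87 for Cda and −6.38 for Fxyd2, again a description, since the TGFβ1 libraries entered the choice. The order of levels was TGFβ1 above BMP2 above vehicle for Cda and Fxyd2. For R3hdml and M1ap it was TGFβ1 above the other groups, which did not differ beyond their spread.

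Since the libraries were indexed and pooled for sequencing, per the labels, the counts outside the TGFβ1 group were also set against the sum of counts within it. In vehicle replicates 1 and 2 these shares were 0.0972% and 0.0648% for R3hdml, 0.169% and 0.219% for M1ap, 0.102% and 0.149% for Cda, and 0.0840% and 0.116% for Fxyd2. The highest share in a BMP2 library was 0.135% for R3hdml, 0.413% for M1ap, 0.415% for Cda and 0.693% for Fxyd2. Within a library the shares differed between the genes, and in BMP2 replicate 1 that of Fxyd2 was the highest and that of R3hdml the lowest. Reads assigned to the wrong library were not tested as a source of these counts.

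Markers of the organs in which Fxyd2 and M1ap are best known were near 0. The 8 kidney tubule markers summed to 1.22 to 1.62 CPM with TGFβ1, 1.59 to 2.14 CPM with BMP2 and 0.837 to 1.07 CPM with vehicle, and Umod, Slc34a1 and Kcnj1 had 0 counts in all 7 libraries. The 8 male germ cell markers summed to 0.221 to 0.305 CPM with TGFβ1, 0.343 to 1.46 CPM with BMP2 and 0.957 to 1.07 CPM with vehicle, and Tnp1 and Prm2 had 0 counts. The 7 neutrophil markers, a cell type in which cytidine deaminase is abundant in humans, summed to 4.20 to 6.62 CPM with TGFβ1, 3.05 to 9.95 CPM with BMP2 and 1.34 to 1.56 CPM with vehicle, and Ly6g and Mpo had 0 counts. Beside them stood the TGFβ1 means of 357 CPM for Fxyd2, 907 CPM for M1ap and 478 CPM for Cda. The 5 macrophage markers summed to 21.4 to 31.5 CPM with TGFβ1, 13.8 to 17.1 CPM with BMP2 and 20.5 to 28.7 CPM with vehicle.

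Likeness of profile was measured as the Euclidean distance between log2(CPM + 1) profiles over the 7 libraries, each centred on its own mean, and it mainly reflects the step between TGFβ1 and the rest, on which the 4 genes were chosen, so that their likeness to each other is a description of that choice. For M1ap the nearest were Cda (0.844), Adamtsl2 (0.935) and F13a1 (0.937). For Cda they were M1ap (0.844), Fxyd2 (1.04) and F13a1 (1.19), and for Fxyd2 they were Cda (1.04), M1ap (1.12) and F13a1 (1.45). R3hdml was farther from all, with M1ap at 1.77, Cda at 1.97 and Adamtsl2 at 2.23, and it was only in place 7 for M1ap, 8 for Cda and 15 for Fxyd2. F13a1, the A subunit of coagulation factor XIII, averaged 1151 ± 33.6 CPM with TGFβ1, 15.5 ± 0.319 CPM with BMP2 and 14.4 ± 0.296 CPM with vehicle (SD, n = 2, 3 and 2). Adamtsl2, an ADAMTS-like matrix glycoprotein, averaged 145 ± 14.1 CPM with TGFβ1, 0.531 ± 0.301 CPM with BMP2 and 0.901 ± 0.428 CPM with vehicle (SD, n = 2, 3 and 2).

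Among the other CAP superfamily genes, 4 of 13 were tested, and 2 rose and 1 fell with TGFβ1, against 30.4% and 25.8% of all tested genes. Their median log2 fold change was 0.49, against −0.02 over all tested genes. Crispld2, a secreted CAP protein with LCCL domains, rose by 4.21 on the log2 scale (SE 0.26, adjusted p = 3.1e-07), to 81.0 ± 3.88 CPM with TGFβ1 against 4.36 ± 0.0755 CPM with vehicle. Its close paralog Crispld1 fell by 3.02 (SE 0.14, adjusted p = 3.6e-08), to 24.9 ± 1.41 CPM with TGFβ1 against 202 ± 7.80 CPM with vehicle. Glipr2, a Golgi-associated CAP protein, rose by 0.92 (SE 0.16), and Pi15, a secreted trypsin inhibitor, stood at 0.06 and did not pass the test. With BMP2, Crispld1 fell by 0.92 (SE 0.11, adjusted p = 0.000611), 0 of the 4 rose (0 also by DESeq2 and at an unadjusted p under 0.05), and the median was −0.42 against 0.00 over all tested genes. Without BMP2 replicate 3 the count past the threshold was 2 in place of 1, Crispld2 then being called at −1.27 (−0.86 with all libraries). Over all tested genes 472 rose and 509 fell in that setting, against 713 and 822.

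Of the other sodium pump and FXYD genes, 5 of 10 tested rose and 0 fell with TGFβ1, by edgeR's test and by DESeq2. Of all tested genes 30.4% rose and 25.8% fell. With the offset for principal transcript length and GC content 4 of the 10 rose and 1 fell. Of the 13230 genes in that fit 3345 rose and 3153 fell. At an unadjusted p under 0.05 by edgeR's test 5 were higher and 1 lower. The median of the 10 was 1.29 on the log2 scale, against −0.02 over all tested genes. Fxyd5, the regulator also called dysadherin, rose by 4.85 (SE 0.23, adjusted p = 3.9e-08), with 2401 and 1519 CPM in the TGFβ1 libraries against 67.5 and 68.7 CPM in the vehicle libraries. Fxyd6 rose by 4.53 (SE 0.15, adjusted p = 1.1e-08), with 835 and 788 CPM in the TGFβ1 libraries against 36.6 and 33.4 CPM in the vehicle libraries. Both were far above vehicle in each TGFβ1 library, and Fxyd5, like R3hdml, was higher in replicate 1. Fxyd1, the heart and muscle regulator phospholemman, rose by 2.95 and Fxyd3, another regulator, by 2.03. With the offset for principal transcript length and GC content Fxyd1 stood at −0.19 and was not called, while Fxyd5 (3.42), Fxyd6 (4.20) and Fxyd3 (1.95) stayed past the threshold. The beta subunits Atp1b1 (0.55), Atp1b2 (−0.98) and Atp1b3 (0.06) and the regulator Fxyd4 (−0.84) did not pass, though Atp1b2 was called with upper-quartile scaling (−1.17).

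With BMP2, 2 of these 10 genes rose and 2 fell, against 5.33% and 6.15% of all tested genes, and the median was 0.23 against 0.00. Fxyd6 rose by 0.76, while Fxyd1 fell by 0.87. Fxyd3 (0.51), Fxyd5 (−0.24), Atp1b1 (0.90), Atp1b2 (−0.44), Atp1b3 (0.29) and Fxyd4 (0.16) did not pass, though Atp1b1 was called without BMP2 replicate 1 (1.07) and with no filter (0.91). The calls of Fxyd6 (0.69) and Fxyd1 (−0.75) were lost without vehicle replicate 2. Without vehicle replicate 2 the list lost its calls, and without vehicle replicate 1 some of them. Calls over all tested genes were also fewer in both settings. The list had 2 calls in place of 4 without BMP2 replicate 3, where 472 rose and 509 fell over all tested genes. With all libraries these were 713 and 822.

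Of the other genes of pyrimidine salvage, synthesis and breakdown, 9 of 30 tested rose and 8 fell with TGFβ1, near the 30.4% and 25.8% of all tested genes, with a median of 0.13 against −0.02. The 3 rises with the smallest p were those of Slc29a1, the equilibrative nucleoside transporter ENT1, by 2.99, of Nt5c, a deoxyribonucleotidase, by 2.77, and of Tyms, thymidylate synthase, by 2.28. The 3 falls were those of Cmpk1, the UMP/CMP kinase (fell by 0.84), Upb1, a beta-ureidopropionase of pyrimidine breakdown (fell by 2.57), and Nt5c3, a pyrimidine nucleotidase (fell by 0.77). Slc29a1 averaged 379 ± 34.2 CPM with TGFβ1 against 47.8 ± 2.22 CPM with vehicle (SD, n = 2 each). Nt5c and Tyms were higher in TGFβ1 replicate 1 than in replicate 3. Nt5c stood at 182 and 113 CPM there, against 21.3 and 22.0 CPM with vehicle. Tyms stood at 129 and 67.6 CPM, against 19.1 and 21.4 CPM with vehicle. With the offset for principal transcript length and GC content Nt5c stood at 0.16 and was not called. Without vehicle replicate 1 fewer of the list were past the threshold than the 17 with all libraries, as were fewer of all tested genes.

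With BMP2, 3 of the 30 pyrimidine genes rose and 2 fell, against 5.33% and 6.15% of all tested genes, and the median was 0.03 against 0.00. Samhd1, a deoxynucleotide triphosphatase, rose by 0.89, Rrm2, a ribonucleotide reductase subunit, by 0.80 and Cmpk1 by 0.39. Nt5e, the ecto-5′-nucleotidase CD73, fell by 0.93 and Tk2, mitochondrial thymidine kinase, fell by 0.70. Without vehicle replicate 1 or vehicle replicate 2 the calls of these 5 genes were lost, and calls over all tested genes were also fewer. The count was 8 without BMP2 replicate 1 and 3 without BMP2 replicate 2 or BMP2 replicate 3. Over all tested genes 810 rose and 824 fell without BMP2 replicate 1, against 713 and 822 with all libraries. These were 508 and 564 without BMP2 replicate 2, and 472 and 509 without BMP2 replicate 3. The Cmpk1 call was also lost with upper-quartile scaling (0.36), with no filter (0.40) and with the offset for principal transcript length (0.33), and the Tk2 call with DESeq2 (−0.69) and with its size factors (−0.68).

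Of 44 other meiosis genes in the file 13 had enough counts to be tested, and their levels were low. With TGFβ1, 5 rose and 3 fell, near the 30.4% and 25.8% of all tested genes, with a median of 0.68 against −0.02. Syce2, a component of the synaptonemal complex, rose by 3.31 (SE 0.20, adjusted p = 2.5e-07), to 55.8 ± 11.8 CPM with TGFβ1 against 5.62 ± 0.00393 CPM with vehicle. Hormad2, a chromosome axis protein, rose by 2.84, Psmc3ip, a recombinase cofactor also called HOP2, by 1.46 and Zcwpw1, a histone mark reader, by 1.13. Mei4, which takes part in making meiotic DNA breaks, fell by 1.80 and Mlh3, a mismatch repair protein, fell by 0.56. Hormad2 stayed under 2 CPM, at 1.87 ± 0.0567 CPM with TGFβ1 and 0.239 ± 0.338 CPM with vehicle. The Zcwpw1 call was lost without TGFβ1 replicate 1 (0.88), vehicle replicate 1 (1.10) or vehicle replicate 2 (1.10). The Mlh3 call was lost without TGFβ1 replicate 3 (−0.46) or vehicle replicate 2 (−0.41), with DESeq2 (−0.56) and with both length offsets (−0.34 and −0.17). Without vehicle replicate 2 the list had fewer calls than the 8 with all libraries, and calls over all tested genes were also fewer. With BMP2 0 of the 13 were called by edgeR's test, 0 by DESeq2 and 0 at an unadjusted p under 0.05, and the median was 0.09 against 0.00.

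Genes next to the 4 in the genome were also tested. Within 100 kb of the gene bodies lay 53 other names of the file, of which 22 were tested. Unlike the 4 genes, some of these shared exon bases with other annotated genes. The share was 43.7% for Htra2, 23.0% for Aup1, 11.6% for Loxl3, 6.70% for Pink1, 5.72% for Fitm2 and 5.71% for Ino80b. How far their counts depend on the counting strand was not tested. With TGFβ1, 13 of the 22 rose and 1 fell, against 30.4% and 25.8% of all tested genes, with a median of 0.78 against −0.02. With the offset for principal transcript length and GC content 10 rose and 4 fell, against 3345 and 3153 of the 13230 genes in that fit. With BMP2, 3 rose and 0 fell by edgeR's test, 4 rose and 0 fell by DESeq2, and 5 were higher and 3 lower at an unadjusted p under 0.05, with a median of −0.09 against 0.00; of all tested genes 5.33% rose and 6.15% fell.

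Around Fxyd2 the single tested neighbour was Fxyd6, which ends 3.51 kb before the start of Fxyd2 on the same strand and whose rise of 4.53 is given above. Around M1ap 7 of 10 rose and 0 fell. With the offset for principal transcript length and GC content 5 rose and 2 fell, against 3345 and 3153 of 13230 genes. Sema4f, a transmembrane semaphorin that starts 7.13 kb from M1ap on the opposite strand, rose by 4.03 (SE 0.30, adjusted p = 1.3e-06), with 13.4 and 13.8 CPM in the TGFβ1 libraries against 1.07 and 0.598 CPM in the vehicle libraries. It also rose by 1.70 with BMP2 (adjusted p = 0.0105), to 3.17, 2.52 and 2.35 CPM, and that call was lost without vehicle replicate 2 (1.33). Dok1, an adaptor protein that ends 0.625 kb beyond M1ap, rose by 2.03 with TGFβ1. Loxl3, a lysyl oxidase of collagen crosslinking 3.86 kb beyond it, rose by 1.21 with TGFβ1 and by 0.58 with BMP2, the BMP2 call being lost without vehicle replicate 1 (0.56) or vehicle replicate 2 (0.60). Farther off, the WW domain-binding protein gene Wbp1 rose by 1.24, the Polycomb gene Pcgf1 by 1.15, the chromatin remodelling gene Ino80b by 1.00 and Mogs, a glucosidase of N-glycan processing, by 0.70. With the offset for principal transcript length and GC content Pcgf1 was a called fall at −1.07 (adjusted p = 0.0315) and Ino80b stood at −0.53, and with the offset for deposited length neither was called (0.45 and 0.26). The Pcgf1 call was lost without TGFβ1 replicate 1 (0.57) or vehicle replicate 1 (0.70), Pcgf1 also with upper-quartile scaling (0.96), the Ino80b call without TGFβ1 replicate 3 (0.83) or vehicle replicate 1 (0.76), and the Mogs call without vehicle replicate 2 (0.66). Aup1 (0.18), Htra2 (−0.21) and Dqx1 (−0.35) did not pass, though Htra2 was a called fall with the offset for principal transcript length and GC content (−0.59, adjusted p = 0.00597). Without vehicle replicate 2 the BMP2 calls of the neighbours were lost, that of Fxyd6 included, and calls over all tested genes were also fewer. Without BMP2 replicate 1 there were 5 neighbour calls in place of 3. Over all tested genes 810 rose and 824 fell in that setting, against 713 and 822.

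Around R3hdml 4 of 6 rose and 0 fell with TGFβ1. With the offset for principal transcript length and GC content 3 rose and 1 fell, against 3345 and 3153 of 13230 genes. Gdap1l1, a relative of the mitochondrial protein GDAP1, rose by 2.22 and Fitm2, a lipid droplet protein, by 0.85. Jph2, a junctophilin of striated muscle, rose by 1.26, a call lost without vehicle replicate 1 (1.05) and with DESeq2 (1.27). The antisense transcript 2900093K20Rik rose by 2.92, but stood at −0.086 with the offset for principal transcript length and GC content and at 0.082 with that for deposited length, and was called with neither. Ttpal (−0.21) did not pass. Oser1 stood at −0.72 (adjusted p = 0.0689) and was a called fall with upper-quartile scaling (−0.91), no filter (−0.76) and the offsets for deposited length (−0.93) and principal transcript length (−0.81), and without TGFβ1 replicate 1 (−1.04) or vehicle replicate 2 (−1.01). The 5 tested neighbours of Cda lay between −0.56 and 0.49: Hp1bp3, a heterochromatin protein, rose by 0.49, Ddost, a subunit of the oligosaccharyltransferase, fell by 0.56, and Pink1 (0.33), Mul1 (0.09) and Camk2n1 (−0.13) did not pass. Pink1 was called without BMP2 replicate 1 (0.33). The Hp1bp3 call was lost without vehicle replicate 1 (0.44) and with upper-quartile scaling (0.30).

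**Figure D4:**
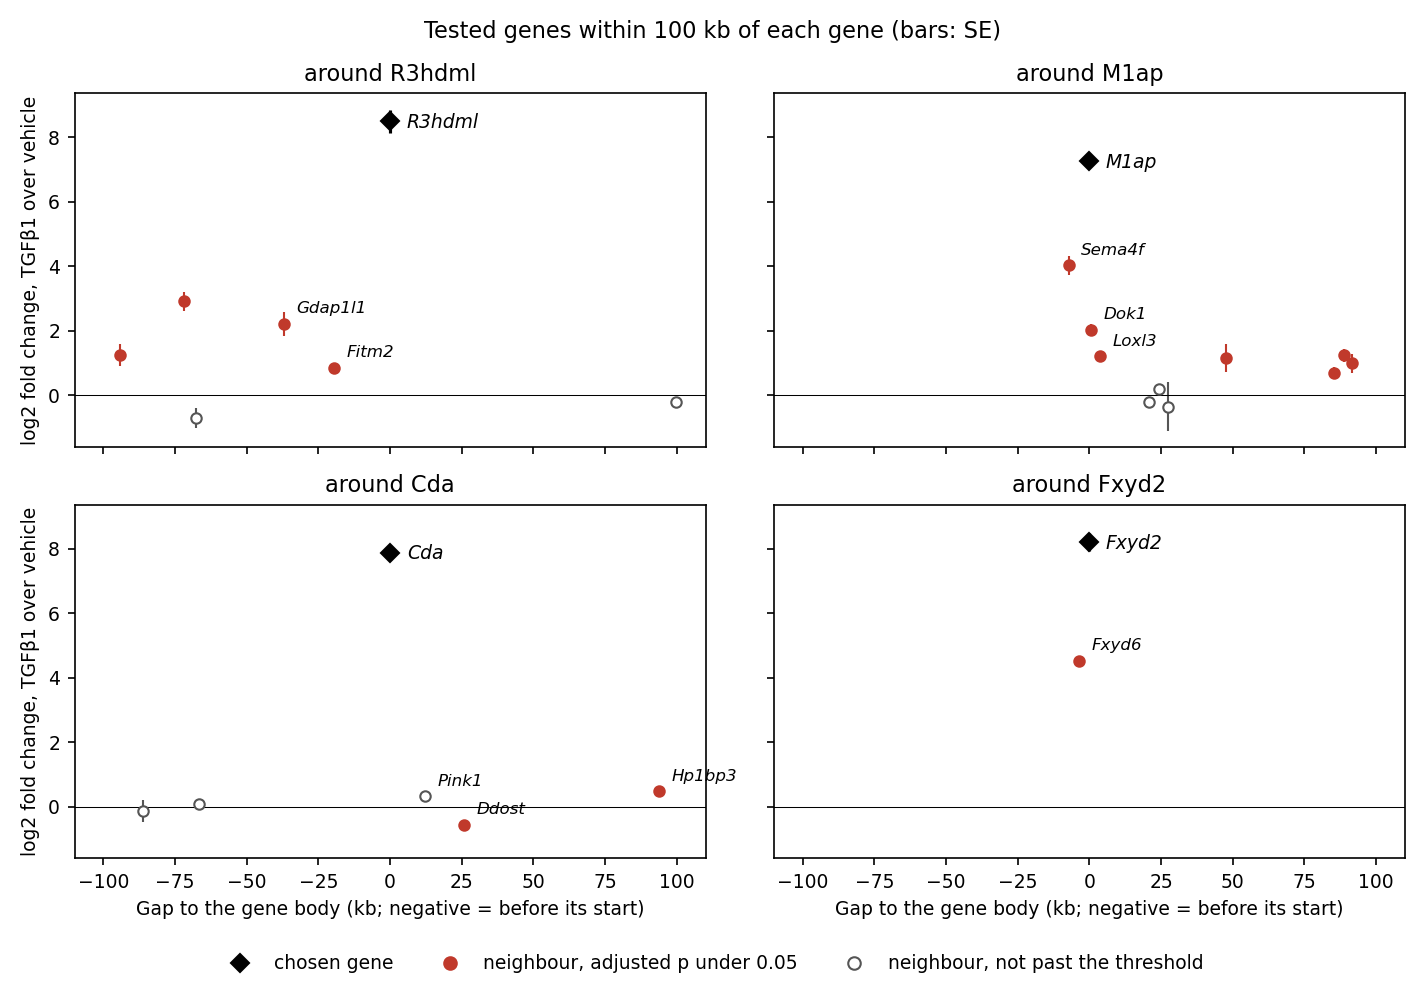
Log2 fold change of TGFβ1 over vehicle (bars are SE) for the 22 tested genes within 100 kb of each of the 4 genes, against the gap to its gene body in kb, negative before its start; filled red points passed an adjusted p of 0.05, open points did not, and black diamonds are the 4 genes. Fxyd6 (4.53) and Sema4f (4.03) are the highest neighbours, and those of Cda lie between −0.56 and 0.49.

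With TGFβ1 the log2 fold change stayed above 5 for all 4 genes in every setting tried, and the lowest were those of Fxyd2 (5.09) and Cda (5.31) with the offset for principal transcript length and GC content.

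**Figure D5:**
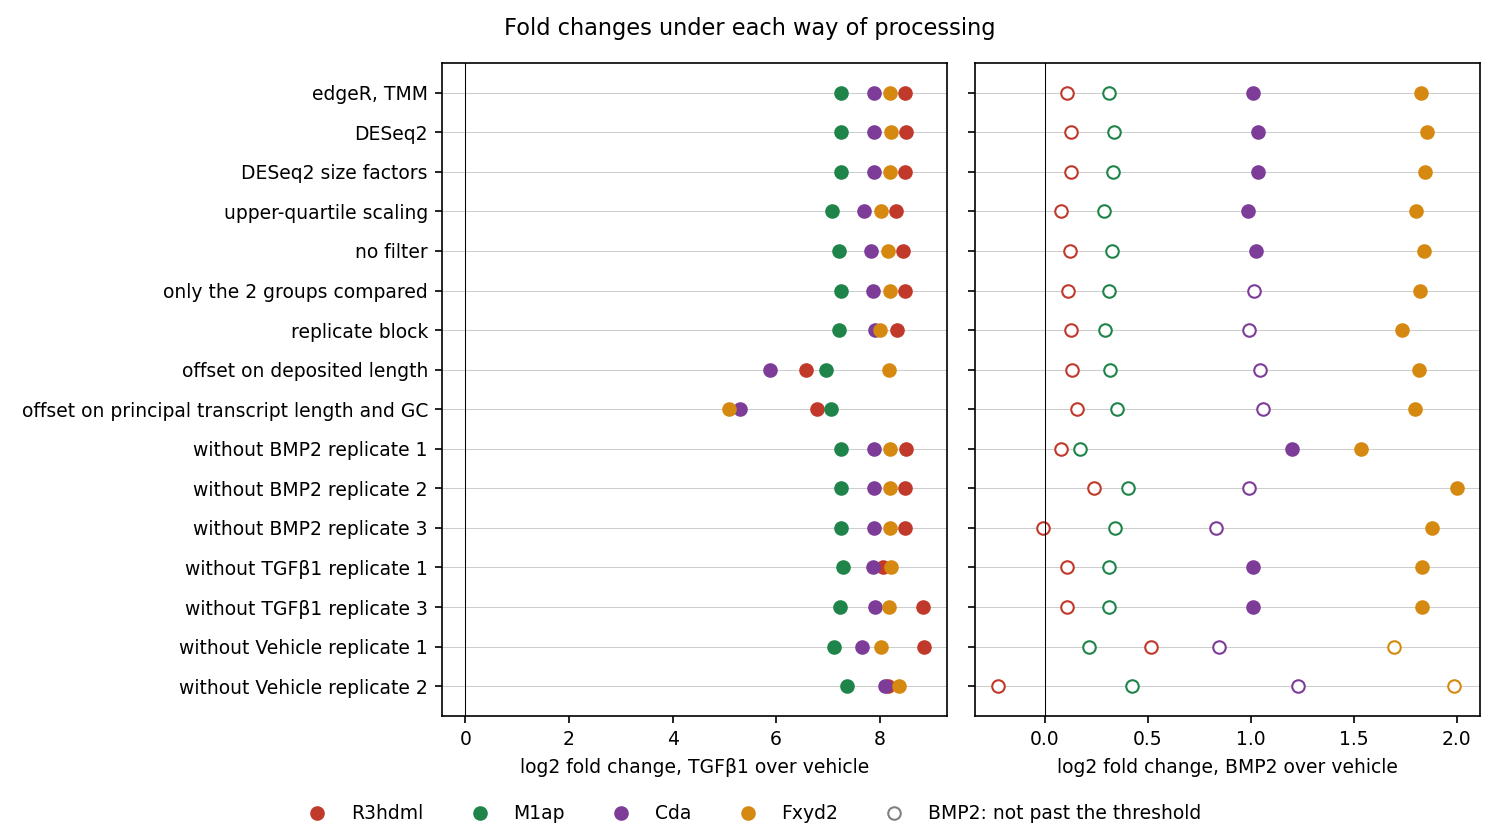
Log2 fold change of each gene (colours) over vehicle for TGFβ1 (left) and BMP2 (right) under each processing setting, 1 row a setting; on the right, filled points passed an adjusted p of 0.05. With TGFβ1 the values lie between 5.09 and 8.86, and with BMP2 Fxyd2 (1.53 to 2.00) was above Cda (0.83 to 1.23) in every row.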

How the data were processed

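The authors deposited 1 table with a count for each of 52459 gene names in 7 libraries and a length for each name. The build was mm10 and the tools named were DESeq2, featureCounts, Subread, STAR 2.4.2a and cutadapt, per the submitters' processing notes, which state no order or role. The counts are whole numbers with unequal totals and were taken as raw. Another deposited column, a number of bases for each name, equals the summed exon length of GENCODE M21 for 42776 of the 45707 names matched as given. A further 2401 names matched with another separator and 199 through a synonym, and 4152 had no match.

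The tests used edgeR 4.0.16 (R 4.3.3): filterByExpr with groups (13367 genes), TMM scaling, and 1 quasi-likelihood fit over all 7 libraries with a coefficient per group (4 residual degrees of freedom, common biological coefficient of variation 0.133). P-values are 2-sided and Benjamini-Hochberg adjusted over all tested genes, with a threshold of 0.05. With 2 or 3 libraries a group, small changes can go unseen. CPM use TMM-scaled library sizes. The code was tested on simulated data.

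The 4 genes and the lists were chosen with earlier results of these data known, and the promoter motifs with the sequences in view. Named are the 4 genes, the 2 genes on either side of 100-fold, the 3 nearest profiles of each, every tested neighbour within 100 kb, every tested CAP superfamily, sodium pump and FXYD gene (except for some not reported here, which stay in the list counts), and, of the pyrimidine and meiosis lists, up to 6 with the smallest p with TGFβ1 and all called with BMP2. Of the lists, Glipr1l3 and Spo16 were not matched, and 4 meiosis genes were matched by synonym. Alternatives were DESeq2 1.42.0, its size factors, upper-quartile scaling, total counts, no filter, only the groups compared, a replicate block, offsets (lowess span 0.3, 3 iterations) on the deposited length or on principal transcript length and GC content (13230 genes), and leaving out each library.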

Additional observations from a re-analysis of the deposited data

How the results depend on the processing

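Of 352 recomputed main values, 297 kept their direction and side of the threshold, or moved by less than the spread. With the offset on deposited length and that on principal transcript length and GC content, the log2 fold change of BMP2 over TGFβ1 was −6.44 and −6.63 for R3hdml, −6.64 and −6.71 for M1ap and −4.84 and −4.25 for Cda; that of Fxyd2 was −3.30 with the second. TGFβ1 over vehicle was 6.57 and 6.79 for R3hdml, 6.96 and 7.07 for M1ap, 5.88 and 5.31 for Cda and, with the second, 5.09 for Fxyd2. Upper-quartile scaling gave 7.07 for M1ap and moved the median of all tested genes to −0.20, against −0.02. On total counts the mean CPM was 707 with TGFβ1 and 6.56 with vehicle for M1ap, 373 with TGFβ1 for Cda and 278 with TGFβ1 for Fxyd2, and the ratio to vehicle was 252 for R3hdml, 108 for M1ap, 167 for Cda and 210 for Fxyd2, with 11 genes above 100. Per kb of principal transcript the TGFβ1 level was 466 for M1ap, 566 for Cda and 564 for Fxyd2. With BMP2, no filter gave 3 CAP calls and 6 neighbour calls, while 1003 rose and 1009 fell of 28908 genes. DESeq2 gave 5 meiosis calls with TGFβ1, while 3644 rose and 2813 fell of 13367 genes. Cda with BMP2 was no longer called at 1.01 with only the groups compared and at 1.04 and 1.06 with the offsets.

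Differences between same-numbered libraries correlated at −0.12 (BMP2 and vehicle) and −0.02 (BMP2 and TGFβ1) over 13367 genes. Each value rests on the difference between a pair of libraries in each group, so it cannot settle whether replicate numbers pair the samples. TGFβ1 and vehicle share only replicate 1, so no such value was available for them. With the replicate number as a block, Cda with BMP2 stood at 0.99 (adjusted p = 0.0953), BMP2 calls were 2 each in the sodium pump and pyrimidine lists, TGFβ1 meiosis calls were 5, and over all genes BMP2 calls were 354 up and 417 down, against 713 and 822. With TGFβ1 calls over all genes were then 3496 up and 2590 down, against 4067 and 3450.

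Leaving out 1 library, the log2 range with TGFβ1 over vehicle was 8.07 to 8.86 for R3hdml, 7.11 to 7.36 for M1ap, 7.67 to 8.09 for Cda and 8.03 to 8.36 for Fxyd2. BMP2 over TGFβ1 ranged between −8.73 and −7.96 for R3hdml. BMP2 over vehicle ranged between −0.23 and 0.52 for R3hdml, which changed sign without BMP2 replicate 3 (−0.01) and without vehicle replicate 2 (−0.23), 0.17 and 0.42 for M1ap, 0.83 and 1.23 for Cda, and 1.53 and 2.00 for Fxyd2. Between 10 and 17 genes passed 100-fold. Calls over all tested genes also varied with the library left out, and those with BMP2 were fewest without a vehicle library. Calls with BMP2 numbered 1 to 2 (CAP), 0 to 5 (sodium pump), 0 to 8 (pyrimidine) and 0 to 5 (neighbours), and with TGFβ1 11 to 19 (pyrimidine) and 4 to 8 (meiosis).

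Of 2527 values for 84 single genes, 2372 kept direction and call, 106 lost the call, 44 gained one and 5 reversed, all with TGFβ1 and the offset on principal transcript length: 2900093K20Rik (−0.086), Fxyd1 (−0.19), Ino80b (−0.53), Nt5m (−0.14) and Pcgf1 (−1.07). Another 95 sign changes were of genes called in neither setting. The causes were not tested. Each vehicle value of these 4 genes rests on 8 to 53 counts a library.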
